A study of Homo sapiens with 6 samples.

Results

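Alternative first exons were compared in HBEC3kt cells that carried the S34F mutation of the splicing factor gene U2AF1 and in wild-type (WT) HBEC3kt cells. HBEC3kt is a line of human bronchial epithelial cells grown in culture. Multi-exon isoforms of each Ensembl gene were grouped by the 5′ splice site that ends their first exon. A group was set aside where its first exon overlapped an internal exon of another isoform of the gene, because such a model can be a read that stopped early. The 2 most-read groups left formed a pair where their first exons did not overlap. Of 10368 genes with multi-exon isoforms, 4904 had 2 or more first-exon groups and 1418 had such a pair. The pair had 10 or more reads in each of the 6 libraries in 594 genes, which are the members described here. At this limit, 18 members had exactly 10 reads in their lowest library, and 32 further pairs, with 9 reads there, lay just outside.

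S34F was read in 3 libraries and WT in 3 libraries, from 2 cell isolates per genotype. Isolate 1 gave replicate 1 and isolate 2 gave replicate 2, both marked B1, and a further library of isolate 2, marked B2, is replicate 3. The sources used here do not give the meaning of B1 and B2, the origin of the isolates, how the mutation was brought in or whether 1 allele carries it. Because an isolate was read more than once, p-values measure the spread between these libraries, part of which may be technical. Poly(A) RNA was copied into cDNA from the poly(A) end and read whole by nanopore, so that a read can tie a first exon to the exons behind it, and a read that broke off early carries no first exon of its transcript.

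A gene with several promoters starts its transcripts at separate first exons, which are then spliced to a shared body. The choice is set by where RNA polymerase II starts, and it can change the 5′ leader, the start codon and the first stretch of the protein. A first exon has a 5′ splice site and no 3′ splice site. The product of U2AF1, the smaller partner in the U2AF heterodimer, recognises the AG of a 3′ splice site, so its nearest known point of action on a first exon is the 3′ splice site of the exon joined to it. The comparison asked whether the share of reads with the upstream first exon differed between S34F and WT cells.

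The junctions of 4 members on which the results turn are printed to show how a pair differs. Each is 5′ to 3′ in the direction of the gene, with the last 15 bases of the first exon in lower case and the first 15 bases of the following exon in capitals, read from the GENCODE 29 transcript that bears the ID of the isoform and has the same internal exon lengths.
AP2S1 upstream first exon: acgggggtcgccatgATCCGCTTTATCCTC
AP2S1 downstream first exon: agagaggacctggagATCCGCTTTATCCTC
COA6 upstream first exon: tgggcgggcagagagCTTCATCGCAGTAGG
COA6 downstream first exon: ttctacagcgcttagCTTCATCGCAGTAGG
MAGED2 upstream first exon: tcgctggaggacaagGCTCAGCTCTTGCCA
MAGED2 downstream first exon: ttgtaggaggacgagGCTCAGCTCTTGCCA
CDKN2A upstream first exon: ttcctagaagaccagGTCATGATGATGGGC
CDKN2A downstream first exon: cggaggccgatccagGTCATGATGATGGGC
In all 4 genes the capitals are the same letters in both forms, so the forms differ in what is spliced to a shared exon. AP2S1 (ENSG00000042753.7) encodes the small sigma subunit of the AP2 adaptor of clathrin-coated pits. Its upstream first exon ends with ATG, the start codon of an annotated reading frame of 142 codons, and the downstream form starts elsewhere in its own exon 1 and has 158 codons. COA6 (ENSG00000168275.10) encodes an assembly factor of mitochondrial cytochrome c oxidase, and its annotated frames start in exon 1 of each form and have 155 codons upstream and 125 downstream. MAGED2 (ENSG00000102316.12), a MAGE family gene, has its start codon in exon 2 of both forms and the same 606 codons, so that only the leader differs. CDKN2A (ENSG00000147889.12), the textbook case, encodes ARF from the upstream first exon and the CDK inhibitor p16INK4a from the downstream one, with 132 and 156 annotated codons.

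For 2 of these members the RefSeq promoter window was also read, from 250 bases before to 50 after the RefSeq start in build GRCh38.p14. Bases from the RefSeq start on are in capitals, and lower-case bases can still be transcribed from another start. The COA6 window (chr1:234373433-234373732, plus strand) belongs to the downstream first exon, and the MAGED2 window (chrX:54807495-54807794, plus strand) to the upstream one.
COA6 promoter: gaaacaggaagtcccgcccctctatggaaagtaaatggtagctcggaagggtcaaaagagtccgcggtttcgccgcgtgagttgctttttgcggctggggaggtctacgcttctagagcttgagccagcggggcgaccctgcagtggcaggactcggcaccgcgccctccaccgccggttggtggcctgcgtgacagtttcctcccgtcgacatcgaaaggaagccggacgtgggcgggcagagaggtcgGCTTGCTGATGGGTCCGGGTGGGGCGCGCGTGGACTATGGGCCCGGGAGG
MAGED2 promoter: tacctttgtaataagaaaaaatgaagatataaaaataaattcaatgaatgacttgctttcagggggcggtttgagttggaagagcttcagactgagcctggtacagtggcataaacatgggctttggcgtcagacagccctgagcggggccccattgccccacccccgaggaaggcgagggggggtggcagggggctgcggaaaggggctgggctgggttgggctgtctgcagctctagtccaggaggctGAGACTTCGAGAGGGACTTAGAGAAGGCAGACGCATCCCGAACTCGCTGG
In COA6 the last 15 bases of the upstream first exon, tgggcgggcagagag, lie inside this window and end 4 bases before the RefSeq start of the downstream form. That upstream exon is 222 bases long in its most-read isoform, so most lower-case letters of the COA6 window are exon of the upstream form. Of 30 members whose RefSeq window belonged to the downstream exon and whose upstream junction was read, 5 held the end of the upstream exon in the window. Among the 495 members whose gene was matched to a window, 70.9% held the GC box letters GGGCGG, 39.0% CCAAT and 6.26% TATAAA. Of all 27305 windows, 44.6%, 35.7% and 11.95% held these letters. RefSeq windows were assigned to the upstream first exon in 207 members and to the downstream first exon in 68. Other matched windows were assigned to neither, so the percentages describe windows of the members' genes and not the promoters of these first exons. Both strands were searched over the whole window, matches of different motifs could overlap, and the windows of all genes include many that were not read here.

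The libraries held 451540 to 1014868 reads in S34F and 1286512 to 1720292 in WT. The members took 76021 to 149966 of these reads in S34F and 195688 to 283801 in WT. The median pair had 57.5, 43.0 and 90.0 reads in S34F replicates 1 to 3, and 155.5, 112 and 149.5 in WT, so shares in S34F carried more counting error. The mean length of the isoform models, weighted by reads, was 1102 to 1381 bases in S34F and 1147 to 1443 in WT, with the highest value of each genotype in its B2 library. U2AF1 itself was read at 513, 401 and 232 CPM (reads scaled by TMM to 1000000 per library) in S34F and at 479, 545 and 291 CPM in WT, with no level change called (edgeR adjusted p = 0.764). All 10 basal epithelial markers had reads, summing to 4653 to 7819 CPM in S34F and 4983 to 6006 in WT, and within this sum KRT5 was higher (708 to 1368 CPM in S34F, 277 to 508 in WT) and LAMB3 lower (678 to 988 CPM in S34F, 1899 to 2341 in WT) without overlap. The 3 blood, 3 mesenchymal and 4 secretory markers were at 0 in every library. Of 3 ciliated markers FOXJ1 was at 0, TUBA1A, which many cell types express, had 155 to 190 CPM in S34F and 60.2 to 90.2 in WT, and DNAH5 had 1.57 to 2.72 CPM in S34F and 0 to 0.570 in WT. The list thus summed to 157 to 192 CPM in S34F and 60.2 to 90.2 in WT, and the part of these differences in the results was not tested.

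The members fell into close and distant pairs. The distance between the 5′ splice sites had a median of 1099 bases and quartiles of 465 and 16281 bases, over a range of 48 bases in RPS21, a ribosomal protein gene, to 577184 bases in SMYD3, a lysine methyltransferase gene. It was up to 1000 bases in 281 members, over 1000 and up to 10000 in 138, and over 10000 in 175. The first exons themselves had median lengths of 160.5 bases upstream and 157.5 downstream. The most-read isoforms of both forms were joined to the same 3′ splice site of exon 2 in 386 members (65.0%) and to different ones in 208. Both first exons belonged to isoforms with an annotated transcript ID in 237 members, only the upstream one in 211, only the downstream one in 95 and neither in 51.

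**Figure D1:**
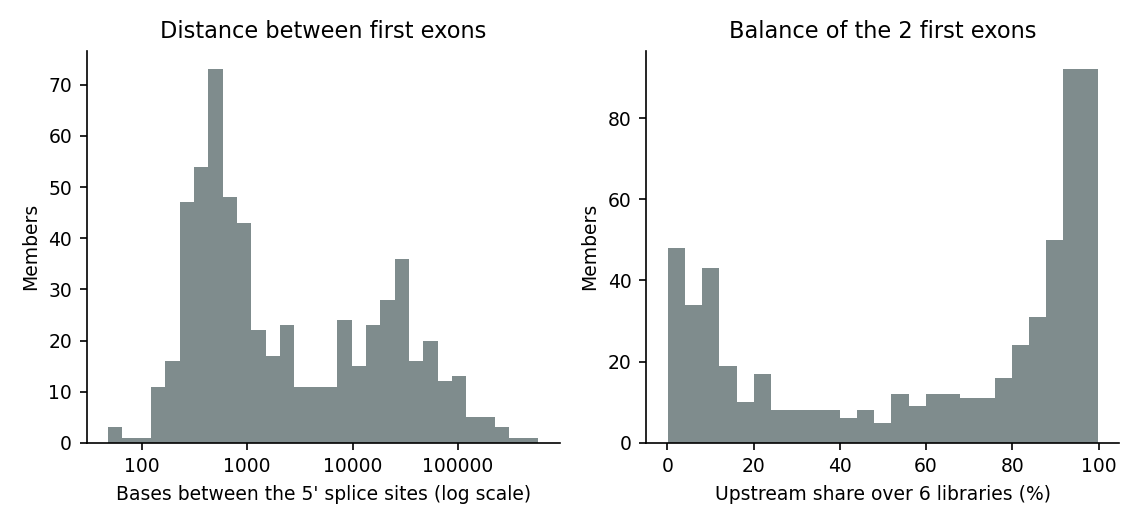
Left, the distance in bases between the 5′ splice sites of the 2 first exons (log axis) and, right, the upstream share of the pair's reads over all 6 libraries (%), each as the number of members of 594. Distances peak under 1000 bases and, lower, over 10000, and most members use 1 form for most of their reads.

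Most members had a dominant first exon. The upstream form was the major one in 375 members (63.1%), and the minor form took a median of 9.29% of the reads of the pair. It took 10% or more in 286 members and 25% or more in 112. The pair held a median of 96.3% of the gene's multi-exon reads. In 212 members both forms could be matched to GENCODE transcripts. These had different start codons in 107, the same start codon in 63, and no annotated start codon in 1 or both forms in 42.

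Over all members, the upstream share did not move to a degree this design could show. Its mean over the 594 members was 60.5%, 61.0% and 59.8% in S34F and 60.5%, 60.3% and 59.2% in WT. That is 60.4% ± 0.618 in S34F and 60.0% ± 0.718 in WT (SD, n = 3 each), a difference of 0.425 points with a two-sided exact permutation p of 0.6, where 3 against 3 cannot give less than 0.1. The upstream share was higher in S34F than in WT in 319 members and lower in 275. The median absolute difference between genotype means was 1.99 points. It was 5 points or more in 136 members and 10 or more in 40. The median absolute difference between the single B1 and B2 libraries of isolate 2 was 3.83 points in S34F and 3.06 points in WT. Single libraries carry more counting error than means of 3, and these also cross B1 and B2, so the values are not on 1 scale with the 1.99 points. The major form differed between the genotype means in 15 members, in 5 of which the libraries did not overlap. Between the single B1 and B2 libraries of isolate 2 it differed in 26 members in S34F and 20 in WT, again not on 1 scale with the means.

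**Figure D2:**
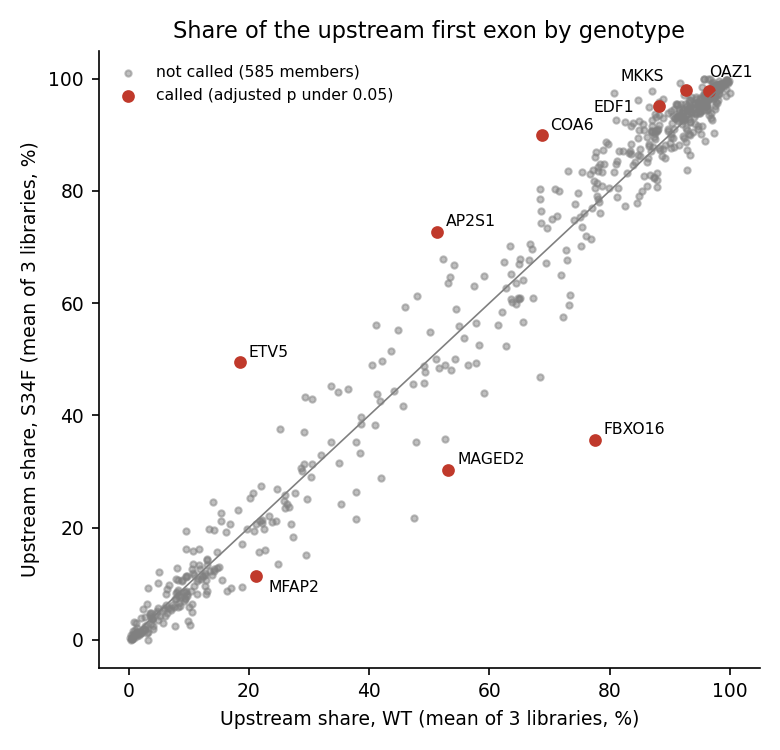
Mean upstream share of 3 S34F libraries (vertical axis, %) against that of 3 WT libraries (horizontal axis, %), 1 point per member; the line marks equal shares. The 9 called members are red and named, 6 above the line and 3 below it, and most of the 594 members lie near the line.

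The choice of first exon was tested in each gene on the reads of both forms in each library, with terms for the library and for B1/B2. The result is a log2 odds ratio, positive where the fit gave the upstream form higher odds in S34F, and a pair was called at an adjusted p under 0.05. The fit weights libraries by their reads and has the B1/B2 term, and its sign differed from that of the difference of mean shares in 57 members, 0 of them called. Of all 2357 pairs tested, 1 per gene, 23 were called (0.976%), 16 with a higher upstream share in S34F (0.679%) and 7 with a lower one (0.297%). Among the 594 members 9 were called (1.52%), 6 higher and 3 lower, against 14 of the 1763 other pairs (0.794%). An unadjusted p under 0.05 was reached by 61 members (10.3%) and by 208 of all pairs (8.82%). The shares of the genotypes did not overlap in 80 members (13.5%), 48 higher (8.08%) and 32 lower (5.39%) in S34F, against 286 of all pairs (12.1%), so the members' counts lay near the background.

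These calls rest on few libraries and on the default edgeR fit. It estimated infinite prior degrees of freedom here, so that the spread of all pairs was taken to be alike. With edgeR's other way of estimating the spread (29.83 prior degrees of freedom) 4 of the 9 remained called (AP2S1, COA6, FBXO16 and MAGED2). The replicate block kept 5 and lost EDF1, MFAP2, MKKS and OAZ1, and thinning all libraries to equal depth kept AP2S1. None was called with the 2 libraries of isolate 2 summed, so that each isolate counts once, or with no B1/B2 term (24 and 30 members at an unadjusted p under 0.05). These 2 fits had 8.81 and 7.08 prior degrees of freedom, so their spread was also estimated otherwise than in the main fit. With limma none was called at either offset (48 and 58 members at an unadjusted p under 0.05), nor with DESeq2 (19 at an unadjusted p under 0.05). Calls also numbered 0 without S34F replicate 3 or without WT replicate 3, each of which leaves the other B2 library with nothing to be compared with (46 members at an unadjusted p under 0.05 in each). Without S34F replicate 1 the calls were AP2S1 and TUBA4A, and without WT replicate 1 AP2S1 and COA6. Without S34F replicate 2 they were AP2S1, FBXO16, MAGED2 and OAZ1, and without WT replicate 2 AP2S1, ETV5, FBXO16, MAGED2, MFAP2 and MKKS. All 9 had the same sign of difference in the B1 and in the B2 libraries, as had 333 of all members (56.1%). The 9 were picked by a fit on these same libraries, which favours such pairs, so their shared sign is no separate evidence.

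AP2S1 had the smallest p, with a higher share of the upstream first exon, which ends in its start codon, in S34F. The upstream exon (chromosome 19, 47354021 to 47354249, minus strand, hg19) and the downstream exon (47353391 to 47353573) have 5′ splice sites 630 bases apart. The upstream share was 71.7%, 77.5% and 68.8% in S34F, against 64.5%, 46.9% and 42.6% in WT. All 3 S34F libraries lay above all 3 WT libraries, and WT replicate 1 stood nearest to them. The means were 72.7% ± 4.44 in S34F and 51.3% ± 11.6 in WT (SD, n = 3 each), with a log2 odds ratio of 1.31 (SE 0.22, edgeR adjusted p = 1.42e-06). Between S34F replicate 1 and WT replicate 1 the difference was 7.19 points, and between S34F replicate 2 and WT replicate 2 it was 30.6 points. Isolates are numbered within each genotype, and the numbers were not taken to pair the libraries. Neither exon's level was called, nor the gene's (log2 fold changes 0.35 upstream, -0.96 downstream and -0.15 for the gene).

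COA6, whose exons lie side by side (chromosome 1, 234509203 to 234509424 and 234509430 to 234509586, plus strand), used the upstream exon in 90.0%, 92.9% and 87.0% of reads in S34F and in 70.5%, 62.7% and 72.9% in WT. All 3 S34F libraries lay above all 3 WT libraries, and in the B2 libraries the difference was 14.1 points. The downstream form, with its start codon in its own exon 1, had 5, 2 and 10 reads in S34F and 44, 66 and 32 in WT. COA6 is among 4 members whose downstream exon starts within 10 bases of the upstream 5′ splice site. A read of a longer first exon that runs past that site, broken off early, would be counted as the downstream form. Whether such reads occurred was not tested. The log2 odds ratio was 1.86 (SE 0.45, edgeR adjusted p = 0.0115). The level of the downstream exon fell to 7.40, 4.04 and 9.70 CPM in S34F, against 24.0, 51.7 and 19.8 CPM in WT (log2 fold change -1.95, edgeR adjusted p = 0.0346), while the upstream exon had a log2 fold change of -0.07 and was not called.

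ETV5 encodes an ETS transcription factor. Its pair joins an exon at chromosome 3, 185826729 to 185826799, with one at 185782206 to 185782232 (minus strand), both in annotated transcripts without a start codon. The 5′ splice sites are 44523 bases apart, and the 2 forms share no 3′ splice site of exon 2. The upstream share was 52.2%, 82.4% and 14.0% in S34F, against 20%, 28.2% and 7.25% in WT. The genotypes overlapped, since the B2 library of each genotype was its lowest, and the difference was 43.2 points between the B1 means and 6.70 points in B2. The call (log2 odds ratio 2.05, SE 0.52, edgeR adjusted p = 0.0188) came from the fit with the B1/B2 term and stood on 3 to 37 reads per form in S34F libraries. The downstream exon fell to 16.3, 6.05 and 35.9 CPM in S34F, against 39.3, 39.9 and 111 CPM in WT (log2 fold change -1.69, edgeR adjusted p = 0.0131).

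In 3 further members a minor downstream form took a smaller share in S34F, and in none of them did that form carry an annotated transcript ID. EDF1, which encodes a transcriptional coactivator, used its upstream exon (chromosome 9, 139760633 to 139760718) in 95.2%, 94.5% and 95.7% of reads in S34F and in 86.2%, 88.0% and 90.8% in WT (edgeR adjusted p = 0.0334). Its downstream exon (139759692 to 139760068) had 11, 5 and 6 reads in S34F and 68, 58 and 23 in WT. MKKS, the gene of a chaperonin-like protein mutated in McKusick-Kaufman and Bardet-Biedl syndromes, had 0, 2 and 5 reads of its downstream exon (chromosome 20, 10400319 to 10400365) in S34F and 33, 27 and 43 in WT. The 0 of 100 reads in S34F replicate 1 allows a share of up to 3% for that form (3 counts of the total, counting error only). The 5′ splice sites of MKKS are 14437 bases apart, and its 2 forms share no 3′ splice site of exon 2. Its upstream share was 98.1% ± 1.72 in S34F and 92.8% ± 2.57 in WT (SD, n = 3 each), with a log2 odds ratio of 1.89 (SE 0.52, edgeR adjusted p = 0.0375). OAZ1, which encodes ornithine decarboxylase antizyme, a brake on polyamine synthesis, differed least in points, with 98.5%, 97.8% and 97.3% in S34F and 96.8%, 96.5% and 96.5% in WT. Its 37, 24 and 40 downstream reads in S34F and 123, 98 and 69 in WT gave a log2 odds ratio of 0.78 (SE 0.22, edgeR adjusted p = 0.0452).

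The upstream share was lower in S34F in 3 members. MAGED2, whose encoded protein takes part in salt handling by the kidney and whose forms differ in the leader only, used its upstream exon (chromosome X, 54834033 to 54834235, plus strand) in 25.5%, 33.3% and 32.04% of reads in S34F, against 51.6%, 53.7% and 54.2% in WT. The genotypes stood apart, with a spread of 4.18 points in S34F and 1.40 points in WT (SD, n = 3 each), and the downstream exon (54834798 to 54834866) was the major one in S34F. The log2 odds ratio was -1.40 (SE 0.35, edgeR adjusted p = 0.0141). The level of the upstream exon fell to 17.8, 18.2 and 32.01 CPM in S34F, against 62.3, 51.7 and 71.1 CPM in WT (log2 fold change -1.45, edgeR adjusted p = 0.0185), and the downstream exon had a log2 fold change of -0.07, not called.

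FBXO16, an F-box gene, is the thinnest of the called members. It had 5 and 12, 6 and 7, and 5 and 11 upstream and downstream reads in S34F replicates 1 to 3, and 20 and 5, 19 and 6, and 23 and 7 in WT. The upstream share was thus 29.4%, 46.2% and 31.2% in S34F, against 80.0%, 76.0% and 76.7% in WT. The Wilson 95% interval of S34F replicate 2 ran from 23.2% to 70.9% and that of WT replicate 2 from 56.6% to 88.5%, so these libraries overlap in counting error. The log2 odds ratio was -2.66 (SE 0.62, edgeR adjusted p = 0.00832). The exons are 103793 bases apart, and no level of FBXO16 was called. The downstream exon has 36 bases and belongs to 1 isoform of 11 exons, which has no annotated transcript ID. No isoforms of the 2 forms share a 3′ splice site of exon 2, and whether both forms belong to 1 gene was not tested. MFAP2, which encodes a glycoprotein of elastic microfibrils, used its upstream exon (chromosome 1, 17308009 to 17308137, minus strand), not in an annotated isoform, in 11.6%, 13.0% and 9.68% of reads in S34F and in 26.3%, 17.6% and 19.7% in WT. The 3 S34F libraries lay below the WT ones, with a log2 odds ratio of -1.09 (SE 0.31, edgeR adjusted p = 0.0452).

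**Figure D3:**
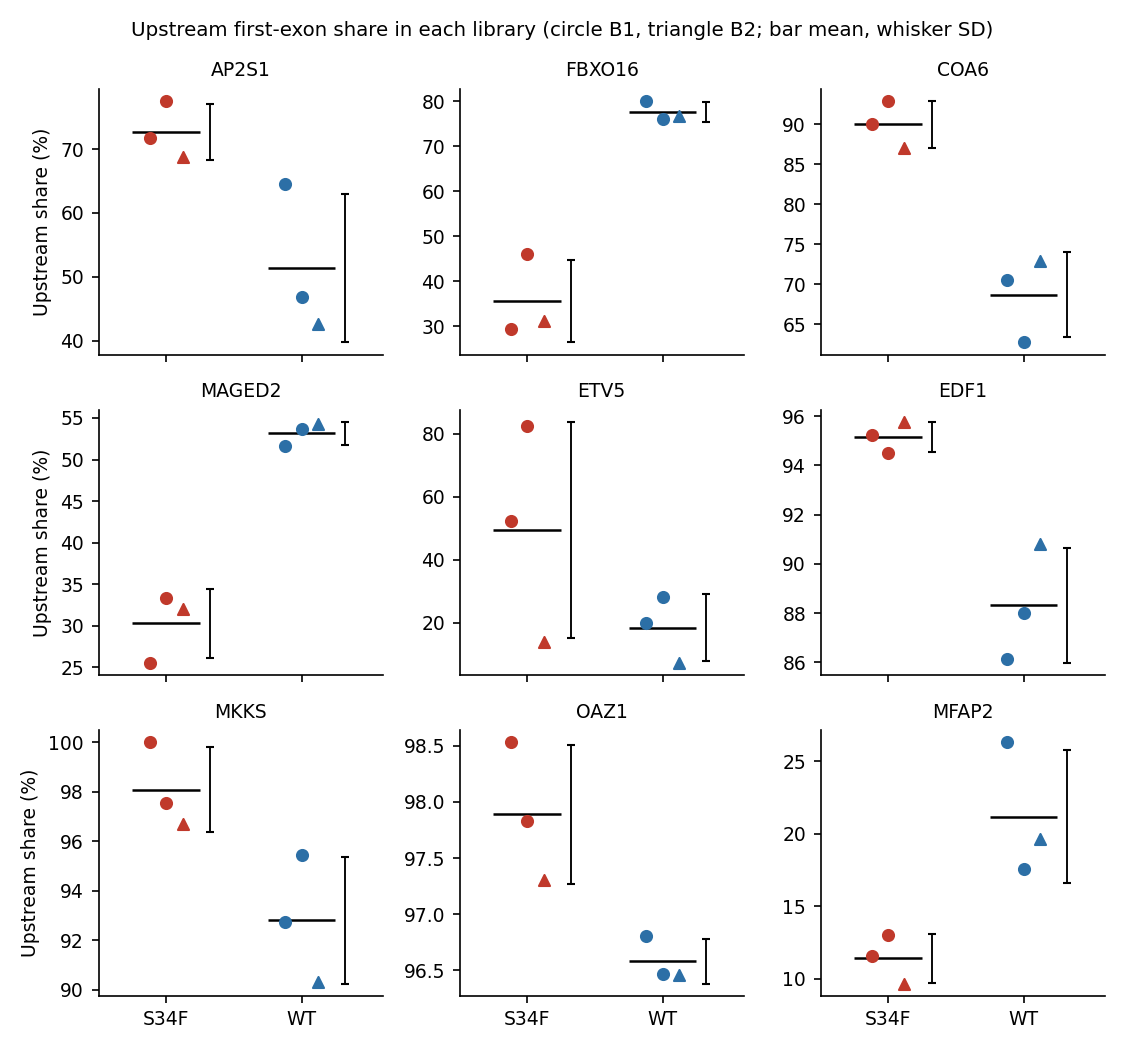
Upstream first-exon share (vertical axes, %, each panel with its own range that does not start at 0) of the 9 called members in 3 S34F libraries, left, and 3 WT libraries, right. Circles are B1 and triangles B2 libraries, bars are means and whiskers SD; all members but ETV5 have libraries that do not overlap between S34F and WT.

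Members that came next in the order of p, or had large differences, were not called. FIS1, which encodes a receptor for the mitochondrial fission machinery, had an upstream share of 6.32%, 6.58% and 14.6% in S34F and 14.6%, 18.8% and 17.8% in WT (edgeR adjusted p = 0.0743). Its annotated frames have 59 codons upstream and 152 downstream. PFDN1, a prefoldin subunit gene, had 9.01%, 7.69% and 9.16% in S34F and 15.6%, 16.5% and 16.8% in WT (edgeR adjusted p = 0.144). TECR, which encodes a reductase of very long chain fatty acid synthesis, had 95.8%, 94.6% and 96.3% in S34F and 92.5%, 91.9% and 88.7% in WT (edgeR adjusted p = 0.173). In PFDN1 and TECR the libraries of the genotypes did not overlap.

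DLGAP4 and NBPF1 had large differences on few reads. The upstream share of DLGAP4, which encodes a scaffold protein of the synapse, was 53.3%, 27.3% and 60.0% in S34F and 67.6%, 63.2% and 74.4% in WT, on 11 to 15 reads per S34F library (edgeR adjusted p = 0.539). NBPF1, of a gene family with near-identical copies among which reads can be split, had 0, 0 and 2 downstream reads in S34F and 8, 5 and 14 in WT. Each 0 stands on 16 reads and allows a share of up to 18.75%, and the pair was not called (edgeR adjusted p = 0.185). The major form also differed between genotype means, without overlap of the libraries, in HTRA1, a secreted serine protease gene, and in MIR205HG, a long noncoding gene of basal epithelia, both chosen after their values were seen. HTRA1 had an upstream share of 61.4% ± 1.67 in S34F and 48.0% ± 5.61 in WT, and MIR205HG had 55.3% ± 11.4 in S34F and 44.8% ± 1.98 in WT (SD, n = 3 each), with edgeR adjusted p of 0.658 and 0.662.

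The 6 most-read members, with 22958 to 76015 reads of the pair, differed by at most 2.37 points between genotype means. PFN1, which encodes the actin-binding protein profilin 1, had 76015 reads and an upstream share of 43.7%, 44.4% and 43.1% in S34F and 42.7%, 41.3% and 40.1% in WT. These ranges did not overlap, but the log2 odds ratio of 0.14 (SE 0.14) was not called. The first exons of PFN1 lie 309 bases apart between 5′ splice sites, and neither is in an annotated isoform. S100A2, a calcium-binding protein gene of basal epithelia, used its upstream exon (chromosome 1, 153539178 to 153539231, minus strand) in 1.57%, 2.04% and 1.93% of reads in S34F, against 2.35%, 2.45% and 2.52% in WT, with no overlap and no call (log2 odds ratio -0.43, SE 0.17, edgeR adjusted p = 0.361). Both S100A2 forms have their start codon in exon 2 and the same 97 codons. TPI1, of glycolysis, had 98.0% ± 0.301 in S34F and 97.2% ± 0.645 in WT, also without overlap (edgeR adjusted p = 0.508).

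ACTB, which encodes beta-actin, had an upstream share of 3.69% ± 1.25 in S34F and 3.92% ± 1.40 in WT, and RPL3, a ribosomal protein gene, 8.01% ± 1.02 in S34F and 8.41% ± 0.287 in WT (SD, n = 3 each). In both genes the genotypes overlapped. The upstream exon of CDK4, the cyclin-dependent kinase of the G1 phase, took 0.840%, 0.665% and 0.556% in S34F and 0.560%, 0.741% and 0.760% in WT, and it is 12 bases long, 55315 bases from the downstream 5′ splice site and not in an annotated isoform. HBEC lines of this kind were immortalised with telomerase and CDK4, and reads of an introduced copy cannot be told apart from those of the gene in these counts. Reads of PFN1, ACTB, TPI1 and RPL3 can be shared with near-identical copies elsewhere in the genome.

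A list of 89 genes known for alternative promoters had reads in 64 genes and 12 members. None of the 12 was called by edgeR, and 2 had an unadjusted p under 0.05. Of all tested pairs 0.976% were called and 8.82% had an unadjusted p under 0.05, so 12 members are too few for a comparison. The mean upstream share was higher in S34F in 8 and lower in 4, while the log2 odds ratio was above 0 in 6 and below 0 in 6. The median log2 odds ratio was 0.07 on the list, against 0.06 over all members and 0.11 over all tested pairs. CDKN2A used the ARF exon (chromosome 9, 21994138 to 21994319, minus strand) in 47.1%, 37.5% and 63.3% of reads in S34F, against 46.4%, 56.9% and 70.3% in WT, and the p16INK4a exon (21974677 to 21974826) for the rest. The genotypes overlapped (log2 odds ratio -0.47, SE 0.23, edgeR adjusted p = 0.541), and in both the B2 library had the highest ARF share. CAST, which encodes the calpain inhibitor calpastatin, had 55.8%, 50.8% and 23.5% in S34F and 37.7%, 31.7% and 18.5% in WT (edgeR adjusted p = 0.369). Its B2 libraries were the lowest of each genotype.

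These pairs need not be the promoters the genes are known for. The downstream form of MDM2, the ubiquitin ligase of p53, has a first exon of 2429 bases in a most-read isoform of 2 exons, and its upstream form is in no annotated isoform. The pair of GNAS held 28.9% of the gene's multi-exon reads and that of SHC1 44.3%. MDM2 had an upstream share of 18.0%, 10.6% and 5.18% in S34F and 15.5%, 9.63% and 3.49% in WT. GNAS, which encodes the stimulatory G protein alpha subunit and is imprinted, had 44.9%, 20% and 27.1% in S34F and 19.9%, 30.8% and 35.1% in WT. The upstream exon of TPM4, a tropomyosin gene whose annotated frames have 284 codons upstream and 248 downstream, took 8.46% ± 3.56 in S34F and 8.09% ± 0.268 in WT (SD, n = 3 each). TSC22D1, with 1073 codons upstream and 144 downstream, had 4.80% ± 0.696 in S34F and 6.42% ± 1.15 in WT. Its paralogue TSC22D3 had 94.3% ± 1.49 in S34F and 92.2% ± 3.60 in WT. KLF6, a zinc finger transcription factor gene, had 94.8% ± 3.14 in S34F and 95.1% ± 1.09 in WT, and the splicing regulator gene RBFOX2 had 8.92% ± 5.88 in S34F and 8.22% ± 5.02 in WT.

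SHC1, which encodes an adaptor of receptor tyrosine kinases, had 75.5% ± 21.2 in S34F and 71.3% ± 7.98 in WT, with 10 reads of the pair in S34F replicate 2. PDLIM7, a PDZ and LIM domain gene, had 2 reads of its downstream form in all S34F libraries and 6 in all WT libraries, too few for a comparison. CAV1, which encodes caveolin 1, the coat protein of caveolae, had 81.0%, 88.0% and 78.9% in S34F and 83.7%, 79.7% and 93.6% in WT, with overlap (log2 odds ratio -0.37, edgeR adjusted p = 0.886). Its upstream form starts in exon 1 and has 178 codons, and its downstream form starts in exon 2 and has 147.

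Levels of the first exons showed which form moved relative to the library. Of the members' first exons, 913 had enough reads to be tested, and 31 changed (3.4%), 13 higher (1.42%) and 18 lower (1.97%) in S34F. Of all 7814 first exons tested 255 changed (3.26%), 76 higher (0.973%) and 179 lower (2.29%). The genes of 19 members changed in level (3.2%), 8 higher (1.35%) and 11 lower (1.85%) in S34F. Of all 7033 genes and loci 228 changed (3.24%), 78 higher (1.11%) and 150 lower (2.13%). With the isolate 2 libraries summed no first exon and no gene of a member was called, TRIB3, CAV1, TUBA4A and TNIP1 included (48 exons and 18 genes at an unadjusted p under 0.05). With no B1/B2 term 3 exons and 0 genes were called (83 exons and 44 genes at an unadjusted p under 0.05). Since low exons are tested only if enough libraries have reads, the members tested are not all members. In bulk RNA, fewer cells with a transcript and less of it per cell cannot be told apart. None of the 9 members called in choice was called in gene level, while in 5 of them a first exon was. That exon was the downstream one, lower in S34F, in COA6, EDF1, ETV5 and MKKS, and the upstream one, also lower in S34F, in MAGED2. The downstream exon of EDF1 was read at 16.3, 10.1 and 5.82 CPM in S34F, against 37.2, 45.4 and 14.2 CPM in WT (log2 fold change -1.51, edgeR adjusted p = 0.0397). That of MKKS was read at 0, 4.04 and 4.85 CPM in S34F, against 18.0, 21.1 and 26.6 CPM in WT (log2 fold change -2.85, edgeR adjusted p = 0.00775). The upstream exon of MKKS and the gene also had negative log2 fold changes, of -1.01 and -1.07. Neither was called (edgeR adjusted p = 0.0952 and 0.0712).

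In 4 members both first exons changed, in the same direction and with no call in choice. TRIB3, a pseudokinase gene of the stress response with exons at chromosome 20, 361523 to 361813 and 361942 to 362144, had 69.6, 139 and 77.6 CPM of the upstream exon in S34F and 1324, 1029 and 481 CPM in WT. Its downstream exon had 11.8, 24.2 and 35.9 CPM in S34F and 327, 318 and 229 CPM in WT. Both exons fell, with log2 fold changes of -3.21 and -3.58 (edgeR adjusted p = 9.26e-05 and 5.15e-05). The upstream share of TRIB3 was 85.5%, 85.2% and 68.4% in S34F and 80.2%, 76.4% and 67.7% in WT. TNIP1, which encodes a partner of the NF-kappa-B inhibitor A20, fell in both exons, with log2 fold changes of -1.47 upstream and -1.38 downstream (edgeR adjusted p = 0.0254 and 0.0485).

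CAV1 rose in both exons, to 139, 178 and 109 CPM upstream in S34F, against 64.5, 43.1 and 45.2 CPM in WT. Downstream it had 32.6, 24.2 and 29.1 CPM in S34F and 12.6, 11.0 and 3.09 CPM in WT. The log2 fold changes were 1.45 and 1.80 (edgeR adjusted p = 0.00853 and 0.0249). TUBA4A, an alpha-tubulin gene, rose in both exons, to 163, 317 and 165 CPM upstream in S34F, against 91.3, 45.4 and 39.0 CPM in WT, and to 151, 131 and 133 CPM downstream in S34F, against 79.2, 54.8 and 61.2 CPM in WT. Its log2 fold changes were 1.88 and 1.09 (edgeR adjusted p = 0.00421 and 0.0397). Its annotated frames have 448 codons upstream and 153 downstream, and its reads can be shared with other alpha-tubulin genes.

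**Figure D4:**
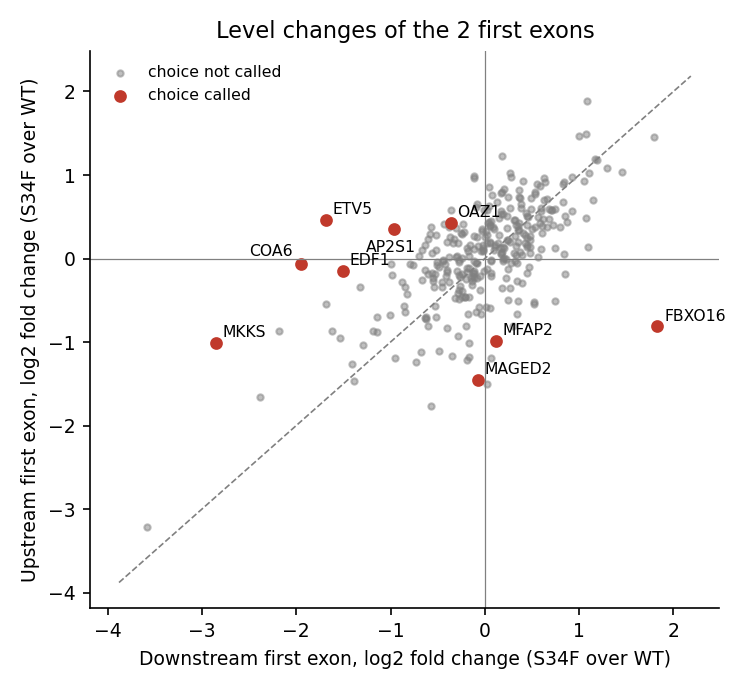
Log2 fold change (S34F over WT) of the upstream first exon (vertical axis) against that of the downstream one (horizontal axis) in the 320 members with both exons tested; the dashed line marks equal changes. The 9 members called in choice (red) lie off the line, and TRIB3 is the lowest point, at -3.58 and -3.21.

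Of the 320 members with both exons tested, 84 had level changes of opposite sign in S34F, called or not. Among the other members with a called exon, 3 are given as examples, chosen after their values were seen. SERPINB10, a serpin gene, had 168 upstream reads in S34F and 3260 in WT (log2 fold change -3.40, edgeR adjusted p = 8.87e-05) and 1 and 25 reads of its downstream exon in S34F and WT. MCFD2, a cargo receptor gene of the secretory pathway, had 82 upstream reads in S34F and 784 in WT (log2 fold change -2.14, edgeR adjusted p = 0.00132). GLUL, the glutamine synthetase gene, had 1165 upstream reads in S34F and 661 in WT, a rise with a log2 fold change of 2.13 (edgeR adjusted p = 0.0254). The gene level was called in 19 of the 27 members with a called exon. Level counts moved with single libraries: the members' called exons numbered 93 without S34F replicate 2, 9 without S34F replicate 3, 5 without WT replicate 1, 5 without WT replicate 2 and 7 without WT replicate 3. The called genes numbered 45 and 67 without S34F replicates 1 and 2, 7 without S34F replicate 3, and 7, 4 and 7 without WT replicates 1, 2 and 3.

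Split by structure, the calls lay in each distance class, with 5 of 281 members up to 1000 bases, 1 of 138 over 1000 and up to 10000, and 3 of 175 above. They numbered 6 of 386 members with the same exon 2 in both forms and 3 of 208 with different ones. In members with only the upstream exon annotated, the upstream share was higher in S34F in 133 and lower in 78. Where only the downstream exon was annotated it was higher in 35 and lower in 60. Where both were annotated the counts were 122 higher and 115 lower. Annotation went with the major form, since the median upstream share in S34F was 93.5% in the first class and 8.36% in the second. With the upstream form major, the upstream share was higher in S34F in 232 members and lower in 143. With the downstream form major it was higher in 87 and lower in 132. Pairs had fewer reads in S34F, and the part of read depth in these counts was not tested. These counts over members carry no test, and called members number 4 with only the upstream exon annotated, 1 with only the downstream one and 4 with both.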

How the data were processed

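The authors deposited 1 table of raw counts of long reads per isoform and library, over 1 set of 63224 isoforms with counts, and the isoform models, named for the tool FLAIR. Positions are in hg19, the build named in the submitters' processing notes. The sources used here do not name an aligner, its version, filters or any use of strand, and reads of near-identical genes or of partners on opposite strands can be split or mixed. All sample columns were used. Reads of each first-exon group were summed per library. The share test used edgeR 4.0.16 in R 4.3.3 (quasi-likelihood, 2 counts per library, library and B1/B2 terms, 3 residual degrees of freedom), with Benjamini-Hochberg adjustment over all 2357 pairs. Each SE was computed back from the test, as the size of the log2 odds ratio over the square root of its F statistic. It is thus no measure of precision apart from the p-value. Levels of first exons and genes used TMM scaling and filterByExpr (10 reads, 15 in total). Scripts were tested on simulated data with the same spread for all pairs and no effect of isolate or B1/B2. Such data cannot show whether the spread of the real pairs is alike. Alternatives were limma 3.58.1 on log odds (offsets 0.5 and 1), DESeq2 1.42.0 and edgeR's other way of estimating the spread (added after seeing the data). Further ones were other minima (5 and 20 reads), thinning to 451540 reads, other scaling and filters, and annotated isoforms only. Other ways to draw the pairs and leaving out libraries were also run. Python 3.11.15, pandas 2.3.3, numpy 2.4.6, scipy 1.17.1 and matplotlib 3.10.9 were used.

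The text names the 12 members with the smallest p, the 6 with the largest difference among those whose libraries do not overlap, the 6 most-read, all members on the list of alternative promoters, and U2AF1. TRIB3, TNIP1, TUBA4A, SERPINB10, MCFD2, GLUL, HTRA1, MIR205HG, RPS21 and SMYD3 were named outside this rule, after their values were seen. Members and lists were chosen with earlier results of these data known. Symbols were found for 578 of 594 members. Start codons and junctions came from GENCODE 29 by transcript ID and internal exon lengths, and promoters from RefSeq (GRCh38.p14). With shared replicate numbers, deviations of gene levels from the genotype means correlated in all pairs (r = 0.48, 0.15 and 0.84, across genes, which are not independent), and a replicate block was run for levels. B1 libraries with different numbers correlated as much (r = 0.53 and 0.31). Intervals are Wilson 95% and cover counting error only, since reads carry no molecular identifiers.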

Additional observations from a re-analysis of the deposited data

How the results depend on the processing

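Of the 9 members called in the choice of first exon, 4 stayed called with edgeR's other way of estimating the spread. With annotated isoforms only 278 members were tested, among them 5 of the 9, and 4 of these 5 stayed called. Thinning libraries to equal depth left 8 of the 9 tested and 1 called. Calls numbered 0 in B1 libraries alone and with limma at either offset (46, 48 and 58 members at an unadjusted p under 0.05). They were also 0 with DESeq2, with no B1/B2 term and with the isolate 2 libraries summed (19, 30 and 24 members at an unadjusted p under 0.05). A replicate block left 5. Deviations in first-exon choice correlated at r = 0.43 between the replicates 3, both B2, and at 0.09 and 0.03 between the replicates 1 and 2, so the numbers were not taken to pair the libraries. Leaving out 1 library gave 0 to 6 calls. The other ways to form pairs and read minima gave 7 to 9. All 9 kept their direction in every alternative that tested them.

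The 31 called first-exon levels became 4 in B1 alone, 0 with isolate 2 summed (48 at an unadjusted p under 0.05), 3 with no B1/B2 term and 17 when thinned, and 5 to 93 with 1 library left out. The 19 called gene levels became 7 in B1 alone, 0 with isolate 2 summed, 0 with no B1/B2 term (18 and 44 at an unadjusted p under 0.05), and 4 to 67 with 1 library left out. The replicate block gave 25 and 15. The difference of the mean upstream share ranged over 0.0185 to 0.748 points with 1 library left out. The cause of these changes was not tested.

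Log2 odds ratios that changed sign belonged to members that were not called. In B1 alone they were 0.23 for CAV1, -0.25 for KLF6, 0.23 for CDK4, 0.0448 for SHC1 and 0.38 for TPM4. With DESeq2 they were 0.0615 for SHC1 and 0.0697 for PDLIM7, with annotated isoforms only 0.0298 for TPM4, and with the replicate block 0.0113 for SHC1. With isolate 2 summed they were 0.0091 for ACTB, -0.0563 for RBFOX2 and 0.0497 for CDK4, and when thinned 0.0442 for ACTB, -0.086 for RBFOX2 and 0.23 for CDK4. With limma at offset 0.5 they were 0.0211 for CDK4, 0.66 for SHC1 and 0.0147 for TPM4, and at offset 1 they were 0.0485 for CDK4, 0.36 for SHC1 and 0.0353 for TPM4. With 1 library left out they ranged from -0.71 to 0.23 for CAV1, -0.25 to 0.45 for KLF6, -0.22 to 0.23 for CDK4, -0.39 to 0.30 for SHC1, -0.42 to 0.38 for TPM4, -0.45 to 0.72 for GNAS, -1.15 to 2.38 for PDLIM7, -0.19 to 0.0241 for RPL3 and -0.18 to 0.49 for RBFOX2. Members near 10 reads per library have wide counting intervals.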
